A study of Mus musculus with 15 samples.

Results

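The livers described here carried chronic fibrosis and were then given ethanol with further carbon tetrachloride (CCl4), and they were set against fibrotic livers taken before that second phase. This is acute-on-chronic injury against its starting point, and it rests on 5 of the 15 messenger RNA libraries of the series: 3 from day 20 of the second phase (libraries 18, 19 and 20) and 2 from day 0 (libraries 3 and 4). Libraries were chosen by their titles alone, and all 24499 gene symbols of the deposited tables were used, of which 14778 had enough reads to be tested. All animals were adult male C57BL/6 mice. Both groups had received CCl4 by intraperitoneal injection at 0.2 ml/kg, 2 times a week for 6 weeks. The day 20 group then received ethanol through a gastric tube, rising to 25 g/kg per day over 3 weeks, with CCl4 continued at 0.5 of its dose, and the labels add a high-fat diet to this arm. Time, tube feeding, diet, ethanol and the lower CCl4 dose therefore changed together between the groups, and their parts cannot be told apart in this comparison. Other groups stand beside it: CCl4 animals kept on chow to day 20 with the same lower dose (2 libraries, 16 and 17), and animals of an arm named OO, which the labels do not spell out, at day 0 (2 libraries, 1 and 2) and with ethanol and high-fat diet at day 20 (3 libraries, 13, 14 and 15). The labels do not say that the libraries of a group came from separate animals, so the spread behind the p-values may be technical. That spread was estimated from all replicated groups of the 15 libraries together, and not from the compared groups alone.

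CCl4 is turned into a toxic radical by cytochrome P450 in the hepatocytes around the central vein, and repeated doses lead to cycles of cell death, regrowth and scarring. Ethanol is oxidised in the same cells by alcohol dehydrogenase and by CYP2E1, the P450 that also activates CCl4. Alcohol-associated hepatitis on a fibrotic liver is known clinically for neutrophils in the tissue, a strong acute-phase response and failing hepatocyte function.

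Counts given to genes ran from 10347844 to 21880629 per library in the 5 libraries. The 2 day 0 libraries differed less from each other than ethanol libraries did, with a chi-square of 3.93 per degree of freedom, against 27.3 to 49.6 for pairs of ethanol libraries. Summed hepatocyte markers were at 113000 to 117000 CPM (counts scaled to a common library size by the TMM method) at day 0 and at 92300 to 98100 CPM with ethanol, and 6 of the 10 were called lower and 0 higher, with a median log2 change of -0.76. Of 17 pancreas markers 8 were at 0 in all 5 libraries, and the sum stayed between 6.31 and 10.4 CPM. The adipocyte list, 2060 to 2070 CPM at day 0 and 93 to 409 CPM with ethanol, was nearly all Car3, a carbonic anhydrase that male liver makes as well, while the defining markers Adipoq and Cfd were at or near 0. The skeletal muscle genes Acta1 and Ckm were at 0.0422, 0.0613 and 113 CPM and at 0, 0 and 70.1 CPM in libraries 18, 19 and 20 and at 0 at day 0. Muscle transcripts were thus high in library 20 alone of the 5 (490 CPM summed, against 0.396 to 0.939 CPM at day 0), and their part in other genes of that library was not tested. In these bulk samples fewer cells of a type and less RNA per cell cannot be told apart.

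With ethanol and CCl4 to day 20, 3059 of the 14778 genes tested were called (20.7%; edgeR's quasi-likelihood test, Benjamini-Hochberg adjusted p under 0.05). Of these 1712 were higher (11.6%) and 1347 lower (9.11%), and 4898 genes had an unadjusted p under 0.05. Large changes were mostly rises: 425 genes rose at least 4-fold and 144 fell at least 4-fold. The median log2 change over all genes tested was 0.0196, close to 0. With 2 libraries against 3, absence of overlap was common: over all genes tested the ethanol libraries all lay above day 0 for 4176 (28.3%) and all below it for 4006 (27.1%). Both groups had a library in each of 2 sequencing lanes given in the names of the deposited files, and limma-voom with the lane as a random block called 2815 genes.

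Library 19 lay nearest to day 0 for many called genes, though not for every list. Its median lay farthest from day 0 of the 3 for the female-biased, male-biased, acute-phase and lipid-associated macrophage lists, among others. Among the 1712 genes called higher it was the lowest ethanol library for 1018, against 273 for library 18 and 421 for library 20. Among the 1347 genes called lower it was the highest for 700. With 1 library left out, 1273 genes were called without library 3, 1190 without library 4, 2089 without library 18, 3230 without library 19 and 2296 without library 20. Genes named below as called kept their call without each of the 5 libraries unless the text says otherwise.

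**Figure D1:**
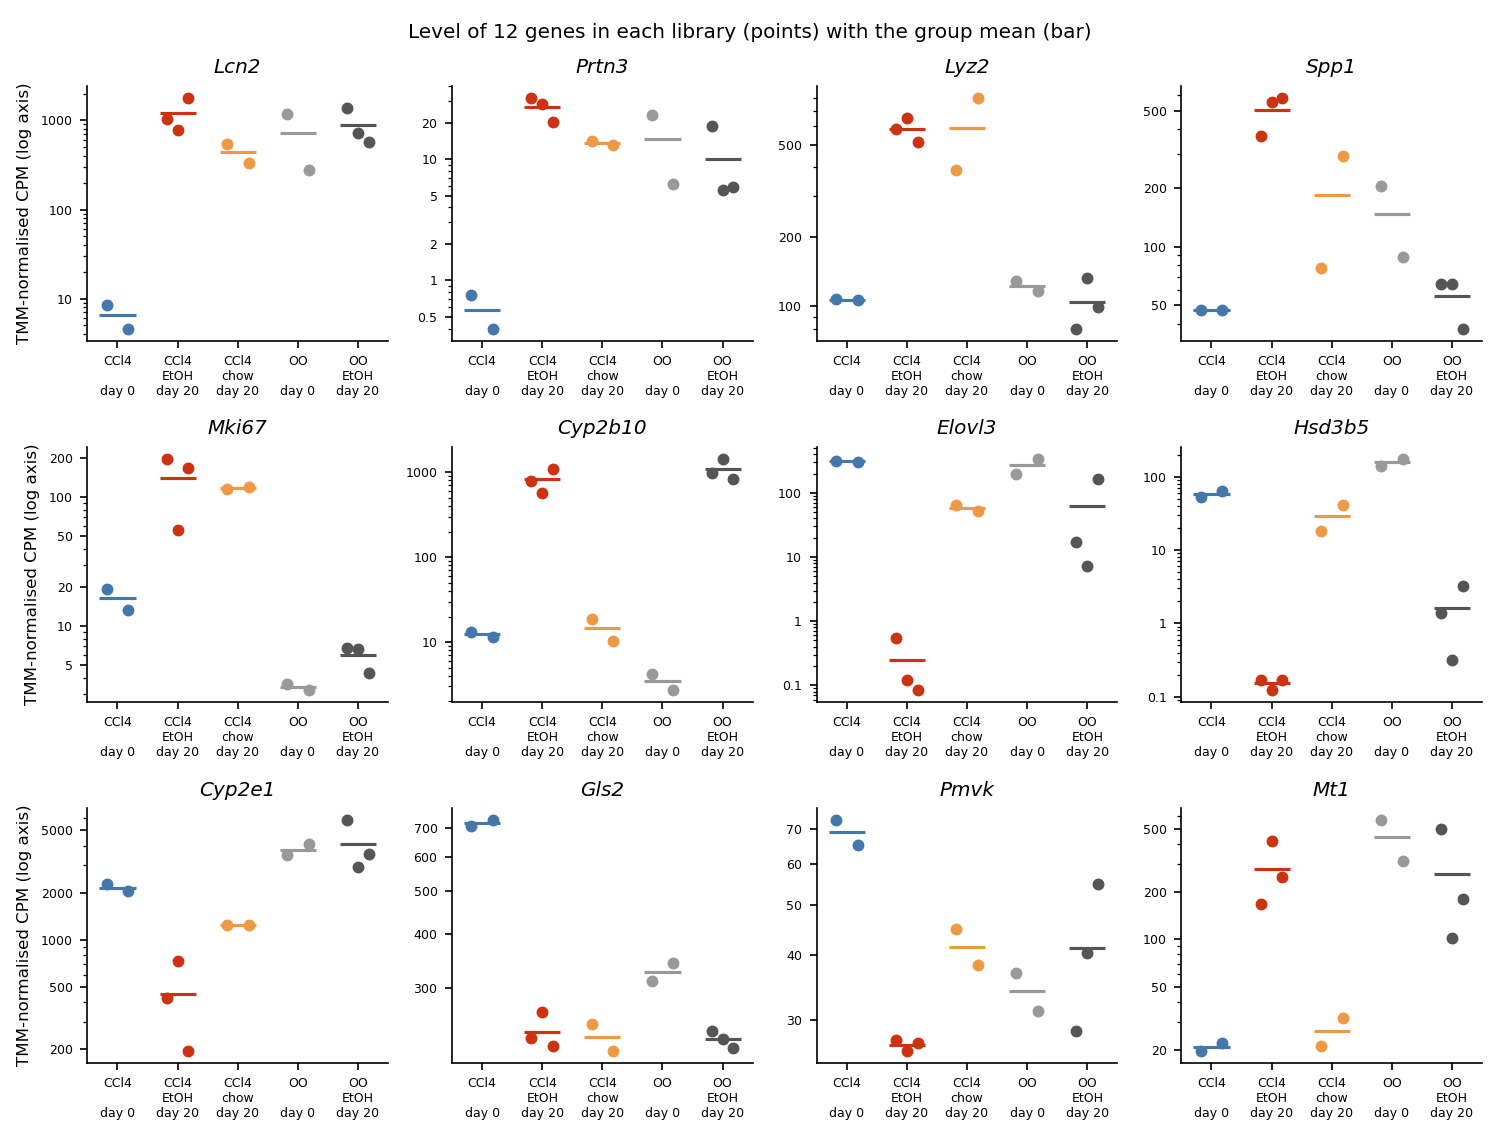
Level of 12 genes in each library of 5 groups, in TMM-normalised CPM on a log axis, with a bar at the group mean. In the CCl4 groups Lcn2, Prtn3, Lyz2, Spp1 and Mki67 were higher in every ethanol library than at day 0, Cyp2b10 and Mt1 were high with ethanol and low with chow, and Elovl3 and Hsd3b5 lay below 1 CPM in all 3 libraries of the CCl4 ethanol group.

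Many of these genes were also called in the CCl4 livers kept on chow, a comparison that shares the day 0 libraries and so is given side by side. There 1694 genes were called (11.5%), 1074 higher (7.27%) and 620 lower (4.2%). Of the 1712 genes higher with ethanol, 912 were also called higher with chow, with a median log2 change of 1.36 with ethanol over the 1712. Of the 1347 lower genes 505 were also called lower with chow, with a median of -0.816 with ethanol over the 1347. Set directly against each other at day 20, the ethanol and chow arms differed in 187 genes (1.27%), 74 higher with ethanol (0.501%) and 113 lower (0.765%). In OO animals, ethanol at day 20 against day 0 called 313 genes (2.12%), 186 higher (1.26%) and 127 lower (0.859%). The change from day 0 differed between CCl4 and OO animals in 1172 genes (7.93%), with the difference above 0 for 559 (3.78%), a larger rise or smaller fall in CCl4 animals, and below 0 for 613 (4.15%), a smaller rise or larger fall. These 2 changes share no library. Counts for the gene lists below stand beside these shares of all genes tested. From day 0 with ethanol in CCl4 animals the shares were 11.6% higher and 9.11% lower.

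**Figure D2:**
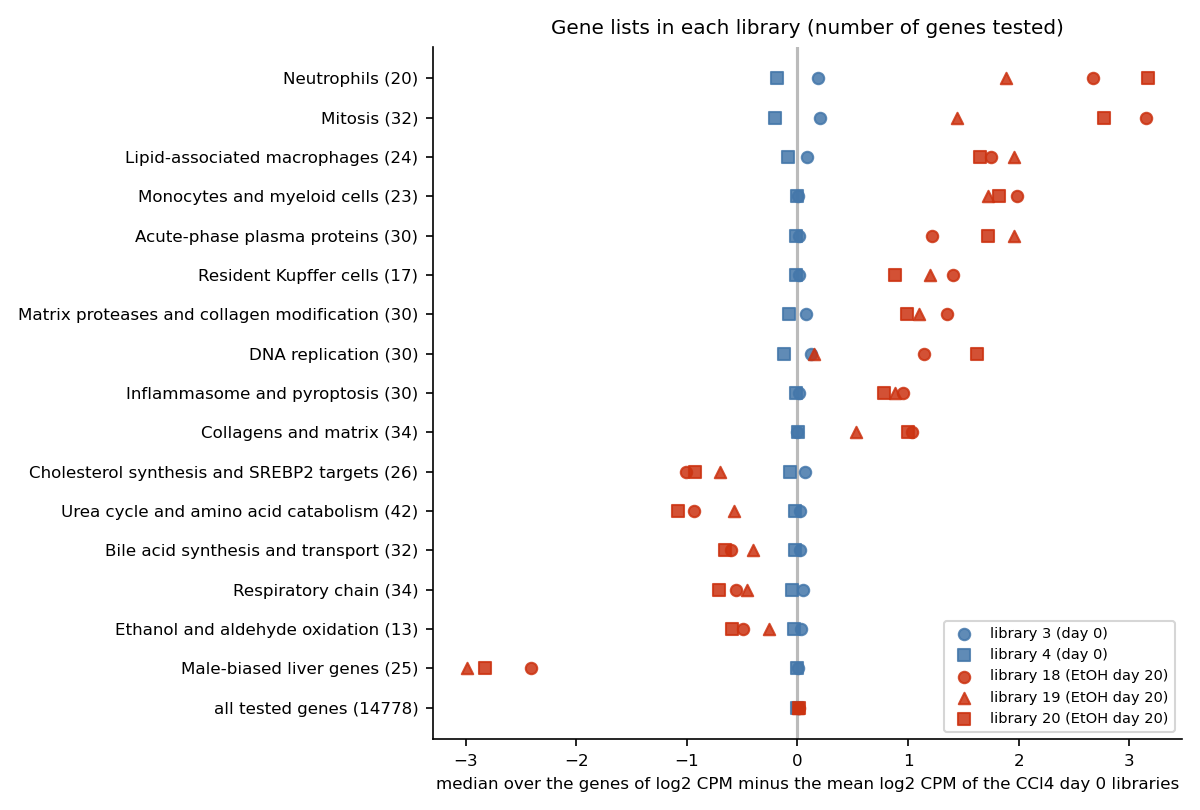
Median over the tested genes of each list of log2 CPM in a library minus the mean log2 CPM of the 2 CCl4 day 0 libraries, for the 5 libraries compared, with the number of genes in brackets. In libraries 18 and 20 neutrophil and mitosis genes lie farthest above day 0, and in library 19 lipid-associated macrophage and acute-phase genes do. Male-biased genes lie farthest below in every ethanol library. Of the ethanol libraries, library 19 lies nearest to day 0 for mitosis, DNA replication and collagens, and the median of all 14778 genes stays near 0.

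Neutrophil genes rose as a group. Of 20 tested members 19 were called higher and 0 lower, with a median log2 change of 3.1, or 2.96 with Ly6g, which had 0 counts at day 0, put at its lower bound. The count was 10 without library 3 and 11 without library 4. Prtn3, a serine protease of neutrophil granules, was at 0.751 and 0.396 CPM in the day 0 libraries and at 32.1, 28.4 and 20.4 CPM with ethanol. Its log2 change was 5.46 ± 0.80 (SE, adjusted p = 0.000852), and every ethanol library lay far above both day 0 libraries. S100a9, which with S100a8 forms the calprotectin complex of neutrophils, was at 6.51 and 3.56 CPM at day 0 and at 46.8, 26.5 and 66.8 CPM with ethanol (log2 change 3.17 ± 0.54, adjusted p = 0.00205). Ltf, the iron-binding lactoferrin of secondary granules, went from 1.44 and 1.19 CPM to 15.1, 6.01 and 23.9 CPM (log2 change 3.48 ± 0.53, adjusted p = 0.00106). For all 3 genes library 19 or library 20 was the lowest of the ethanol group, and none came near the day 0 range. Csf3r, the receptor for the growth factor G-CSF, rose from 3.63 and 3.56 CPM to 11.7, 7.91 and 9.77 CPM.

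In value the chow arm held more of most of these transcripts than the ethanol arm. The median log2 change of the 20 neutrophil genes from day 0 was 4.15 with chow. S100a9 was at 91.6 and 104 CPM and Ltf at 47.4 and 35.2 CPM in the chow libraries. Directly against chow, the list median was -1.03 with ethanol, but the difference passed the test for 1 member. Csf3r was lower with ethanol by edgeR's quasi-likelihood test (log2 difference -0.93 ± 0.19, adjusted p = 0.0438), a call lost without each of libraries 16, 17, 19 and 20 in turn (adjusted p up to 0.284). Prtn3 went the other way in value, at 14.1 and 12.9 CPM with chow, and its difference from the ethanol arm did not pass (adjusted p = 0.541). In OO animals the list's median change was 0.00361.

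Monocyte and macrophage genes rose as well. Of 23 monocyte and myeloid genes 21 were called higher and 0 lower, with a median log2 change of 1.85 with ethanol, 2.07 with chow and 0.0563 in OO animals. Lyz2, the lysozyme of macrophages and monocytes, was at 107 and 107 CPM at day 0 and at 583, 651 and 517 CPM with ethanol (log2 change 2.45 ± 0.30, adjusted p = 0.000325). Itgb2, the common chain of the leukocyte integrins, was at 14.3 and 12.8 CPM at day 0 and at 48.8, 49.9 and 48.3 CPM with ethanol. The 3 ethanol libraries were almost level for this gene and all above day 0. Chil3, a lectin of alternatively activated and immature myeloid cells, rose from 0.877 and 0.791 CPM to 14.2, 10.3 and 39 CPM, the largest log2 change of the list (4.63 ± 0.68). Chemokine genes showed 12 of 27 called higher and 0 lower, or 6 without library 3 and 6 without library 4. Among them the ligand Ccl6 rose from 6.83 and 5.44 CPM to 81.1, 87.2 and 43.8 CPM (adjusted p = 0.000258).

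Lipid-associated macrophages are recruited cells that clear dead and fat-laden material in injured liver. Of 24 genes of that state 20 were called higher and 0 lower, with a median log2 change of 1.92 with ethanol, 1.55 with chow and 0.606 in OO animals. Gpnmb, a lysosomal membrane glycoprotein, was at 28.9 and 23.8 CPM at day 0 and at 273, 434 and 206 CPM with ethanol (log2 change 3.52 ± 0.53, adjusted p = 0.00102). Trem2, the lipid-sensing receptor that defines the state, was at 5.32 and 3.26 CPM and then 27.6, 33.8 and 24.1 CPM (log2 change 2.71 ± 0.37, adjusted p = 0.000598). Spp1, osteopontin, which bile duct cells make too, was at 47 and 47.3 CPM and then 372, 553 and 583 CPM. Its chow values of 77.9 and 291 CPM overlapped neither group, and the difference between ethanol and chow did not pass (adjusted p = 0.26). Cd63, a tetraspanin of lysosomes and exosomes, did separate the day 20 arms. It was at 3.32 and 4.05 CPM at day 0, at 10.8 and 15.5 CPM with chow and at 38.5, 35.7 and 45 CPM with ethanol. Against day 0 its log2 change was 3.44 ± 0.33 (adjusted p = 6.87e-05), and against chow it was 1.59 ± 0.28 (adjusted p = 0.0214), the latter lost without each of libraries 16, 17, 18 and 20 in turn (adjusted p up to 0.231). Apoe, made mostly by hepatocytes, had the lowest value of the list at -0.60 and was not called, though it was without library 19 (adjusted p = 0.0102).

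Among 17 genes of resident Kupffer cells 11 were called higher and 1 lower, with 7 higher without library 3. Cd5l, a secreted survival factor of these macrophages, rose from 113 and 103 CPM to 610.0, 360.5 and 444 CPM (log2 change 2.13 ± 0.22, adjusted p = 0.000122). Cd163, the haemoglobin scavenger receptor, rose from 11.2 and 12.9 CPM to 32.2, 40.1 and 39.1 CPM (log2 change 1.63 ± 0.21). Vsig4, a complement receptor, rose from 33.3 and 30.9 CPM to 87.5, 75.9 and 85.8 CPM (log2 change 1.37 ± 0.15). Clec4f, a lectin that in mice is particular to Kupffer cells, was at 105 and 108 CPM and then 193, 128 and 182 CPM. Its call (adjusted p = 0.0208) was lost without each of libraries 3, 4, 18 and 20 in turn, with an adjusted p up to 0.146. Timd4, which marks embryonically seeded Kupffer cells and was picked out after its values were seen, was at 4.38 and 4.85 CPM at day 0 and at 5.36, 3.43 and 4.29 CPM with ethanol, with overlapping groups. The chow livers had 14.7 and 7.04 CPM of it. The call lower was C6, a complement component (log2 change -1.43 ± 0.26). Lymphocyte genes did not share these rises, with 1 of 21 called higher (Il7r, a T cell cytokine receptor) and 2 lower, among them Cd79b, a chain of the B cell receptor, and none of these 3 calls held in every leave-out fit.

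Acute-phase proteins are made by hepatocytes under interleukin-6 and interleukin-1. Of 30 genes 21 were called higher and 2 lower with ethanol (Serpina3k, a contrapsin named after its value was seen, and Hamp, described below), with a median log2 change of 1.8, or 12 higher without library 3 and 13 without library 4. Lcn2, lipocalin 2, which binds bacterial iron carriers, was at 8.58 and 4.55 CPM at day 0 and at 1033, 789 and 1802 CPM with ethanol, a 180.5-fold rise (log2 change 7.50 ± 0.83, adjusted p = 0.00017). Orm2, an alpha-1-acid glycoprotein, was at 15.3 and 13.1 CPM and then 1356, 699 and 692 CPM (log2 change 6.01 ± 0.49, adjusted p = 2.99e-05). Hp, haptoglobin, rose from 2386 and 2194 CPM to 7908, 9134 and 10709 CPM (log2 change 2.01 ± 0.23, adjusted p = 0.000205). Saa1, serum amyloid A, rose from 49.7 and 47.6 CPM to 612, 1095 and 741 CPM (log2 change 4.07 ± 0.68, adjusted p = 0.00179). The Orm and Saa genes have close copies, and reads that matched more than 1 place were not counted, so their levels are uncertain. Fibrinogen genes stood apart from the rest. Fgb was at 6574 and 6318 CPM at day 0 and at 6283, 12062 and 7095 CPM with ethanol. Library 18 lay below both day 0 values, library 20 above both and library 19 farthest above. Fgb was not called by edgeR's quasi-likelihood test (log2 change 0.40 ± 0.30, adjusted p = 0.401), nor were Fga and Fgg. With chow the list median was 1.17, and the difference between the day 20 arms did not pass for Lcn2, Orm2, Hp or Saa1 (adjusted p of 0.346, 0.264, 0.339 and 0.991).

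In value the OO livers were already high in these genes at day 0. Lcn2 was at 1174 and 277 CPM in the OO day 0 libraries, far above the fibrotic day 0 livers, and Saa1 was at 4797 and 1979 CPM. With ethanol the OO libraries had 1366, 724 and 568 CPM of Lcn2. The list's median change in OO animals was -0.269, with 0 members called higher and 3 lower. The change differed between CCl4 and OO animals for Lcn2 by a log2 value of 7.21 ± 0.92 (adjusted p = 0.00249) and for Saa1 by 5.68 ± 0.86 (adjusted p = 0.00474). Both differences therefore include a low start in the CCl4 arm and a high one in the OO arm. At day 20 with ethanol the Lcn2 libraries of the 2 arms overlapped.

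Inflammasome and pyroptosis genes had a smaller median change. Of 30 members 16 were called higher and 3 lower, with a median log2 change of 0.956, and the higher count was 3 without library 3, 3 without library 4 and 10 without library 18. Casp4, the mouse caspase-11 that senses endotoxin inside cells and cleaves gasdermin D, was at 2.82 and 2.67 CPM at day 0 and at 6.37, 7.05 and 4.29 CPM with ethanol. Its log2 change was 1.11 ± 0.35 (adjusted p = 0.0452), a call lost without each of libraries 3, 4, 18 and 19 in turn, with an adjusted p up to 0.208. Nlrp3, the sensor of the canonical inflammasome, was at 2.07 and 1.48 CPM and then 4.3, 4.17 and 3.79 CPM (log2 change 1.18 ± 0.27, adjusted p = 0.00991), with the call lost without library 4 (adjusted p = 0.112). Casp1 had values of 4.13 and 4.25 CPM and then 7.93, 7.05 and 7.41 CPM (log2 change 0.83 ± 0.26, adjusted p = 0.0385), and that call was lost without each of libraries 3, 4, 18 and 20 in turn, with an adjusted p up to 0.207. Gsdmd, the pore-forming gasdermin D that these caspases cut, was at 33.9 and 30.8 CPM at day 0 and at 38.7, 35.7 and 41.9 CPM with ethanol and was not called (log2 change 0.26 ± 0.16, adjusted p = 0.302). The libraries of the 2 groups did not overlap for Gsdmd, yet the step was small beside the estimated spread.

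The interleukin-1 family members split. Il1b was at 2.44 and 1.98 CPM and then 8.69, 5.82 and 3.45 CPM (log2 change 1.44 ± 0.37, adjusted p = 0.0172), and the call was lost without each of libraries 3, 4 and 18 in turn (adjusted p up to 0.135). Il18 was at 10.9 and 12.3 CPM and then 8.56, 6.56 and 5.89 CPM (log2 change -0.71 ± 0.22, adjusted p = 0.0391), and the call was lost without each of libraries 3, 4, 19 and 20 in turn (adjusted p up to 0.217). The other gene called lower besides Il1rap, Nlrp6, a sensor of epithelial cells, was not stable either. Il1rap, the accessory chain of the interleukin-1 receptor, fell in every library, from 218 and 220.4 CPM to 87.7, 123 and 81 CPM (log2 change -1.17 ± 0.18, adjusted p = 0.000986). Casp4, Nlrp3 and Gsdmd stood in the chow livers at 7.17 and 8.3 CPM, 3.73 and 4.98 CPM and 43.2 and 48.4 CPM, and for none of the 3 did the difference between the day 20 arms pass (adjusted p of 0.721, 0.931 and 0.634). For Casp4 the log2 difference of ethanol from chow was -0.38 ± 0.32, which leaves room for a difference in either direction.

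Mitosis genes rose in all 3 ethanol libraries. All 32 tested members were called higher with a median log2 change of 2.64, and 15 were without library 4. By library the median above day 0 was 3.15 in library 18, 1.44 in library 19 and 2.77 in library 20. Mki67, a chromosome-surface protein present in cycling cells, was at 19.5 and 13.3 CPM at day 0 and at 199, 55.9 and 169.8 CPM with ethanol (log2 change 3.10 ± 0.46, adjusted p = 0.000874). Ccna2, cyclin A2, which drives S phase and entry into mitosis, was at 3.44 and 4.45 CPM and then 37.8, 12.4 and 29.5 CPM (log2 change 2.76 ± 0.40, adjusted p = 0.00082). Cenpe, a kinetochore motor, was at 3.38 and 2.08 CPM and then 28.3, 10.3 and 28.4 CPM (log2 change 3.00 ± 0.45). For each gene library 19 was the lowest of the 3 and still above day 0. The chow livers were alike in value, with Mki67 at 117 and 121 CPM and a list median of 2.17 from day 0. In OO animals the list median was 0.363 and Mki67 stood at 3.58 and 3.19 CPM at day 0 and at 6.84, 6.63 and 4.34 CPM with ethanol.

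Promoters of cell cycle genes are known for 2 short elements, the CCAAT box and the CHR, at which NF-Y and the DREAM and MuvB complexes bind. The 250 bases before each start of the list's genes in RefSeq (build GRCm38.p6) were searched on both strands for TTTGAA, the CHR, and for CCAAT. Matches of the 2 can share at most 1 letter. The search used membership of the list and no expression value, so its shares do not bear on the changes measured here. RefSeq windows matched 26 of the 32 genes, with 28 windows. CCAAT stood in 22 of the 28 windows (78.6%), against 33.8% of all 32851 windows, and TTTGAA in 12 (42.9%), against 16% of all. A match is a description of the letters and not a measured site. Members were taken by smallest adjusted p among those whose window of 150 bases held both motifs, with 1 chromosome left out of the choice. Shown are the 150 bases before the start of the first 3, with both motifs in capitals. They lie at chr7:135716380-135716529 on the minus strand (Mki67), chr7:80294326-80294475 on the plus strand (Prc1, a microtubule bundler of the dividing cell) and chr4:118437344-118437493 on the minus strand (Cdc20, an activator of the anaphase-promoting complex).
Mki67: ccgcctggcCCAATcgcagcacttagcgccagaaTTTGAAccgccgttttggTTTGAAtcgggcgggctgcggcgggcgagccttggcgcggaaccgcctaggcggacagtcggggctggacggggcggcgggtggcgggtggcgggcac
Prc1: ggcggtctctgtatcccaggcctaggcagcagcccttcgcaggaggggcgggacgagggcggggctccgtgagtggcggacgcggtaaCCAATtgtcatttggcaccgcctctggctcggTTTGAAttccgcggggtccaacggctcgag
Cdc20: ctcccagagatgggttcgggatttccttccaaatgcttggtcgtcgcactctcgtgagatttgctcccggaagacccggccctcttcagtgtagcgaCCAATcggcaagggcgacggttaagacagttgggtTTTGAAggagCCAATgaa
In each of the 3 a CCAAT stands 5′ of a TTTGAA. Prc1 and Cdc20 are outside the naming rule and are named for these windows. Prc1 rose from 4.82 and 3.66 CPM to 38.6, 12 and 33.8 CPM and Cdc20 from 4.57 and 3.66 CPM to 55.2, 12.8 and 27 CPM, both with library 19 lowest.

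DNA replication genes were less uniform. Of 30 members 9 were called higher and 2 lower (Mcm10 and Tk1; without library 3, 4 or 18 the lower count was 1, with Tk1 lost at an adjusted p up to 0.131), and the higher count was 0 without library 3, 0 without library 4, 3 without library 18, 22 without library 19 and 3 without library 20. The list median above day 0 was 1.14 in library 18, 0.151 in library 19 and 1.62 in library 20. Mcm10, a replication initiation factor, ran against the list, at 51.5 and 48.8 CPM at day 0 and at 15.4, 7.36 and 14.5 CPM with ethanol (log2 change -2.01 ± 0.33, adjusted p = 0.00172). Ccnd1, cyclin D1, which carries cells through G1, was at 60.4 and 52.4 CPM and then 162, 68.2 and 124 CPM (log2 change 1.06 ± 0.30, adjusted p = 0.0276), and the call was lost without each of libraries 3, 4, 18 and 20 in turn (adjusted p up to 0.186). Of 25 p53 target genes 12 were called higher and 1 lower (Bbc3, the cell death factor PUMA), with 4 higher without library 3 and 4 without library 4. Eda2r, a death receptor of that group, rose from 2.44 and 2.27 CPM to 11.9, 7.6 and 16.3 CPM (log2 change 2.33 ± 0.41, adjusted p = 0.0023). Cdkn1a, the cell cycle inhibitor p21, was at 1.5 and 1.98 CPM and then 10.2, 6.19 and 8.08 CPM (log2 change 2.25 ± 0.57, adjusted p = 0.0158), a call lost without library 3 (adjusted p = 0.148) or library 4 (0.0867).

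Fetal and tumour-associated liver genes also rose, 9 of 19 with 0 lower. Akr1c18, a steroid reductase, was at 0.188 and 0.396 CPM at day 0 and at 14.7, 4.97 and 29.7 CPM with ethanol (log2 change 5.86 ± 1.03, adjusted p = 0.00241). Ly6d, a surface protein, was at 2.13 and 5.93 CPM at day 0, at 21.5 and 24.5 CPM with chow and at 163, 106 and 170.1 CPM with ethanol (log2 change from day 0 5.25 ± 0.64, adjusted p = 0.000307). Its difference from chow passed too (log2 difference 2.67 ± 0.53, adjusted p = 0.0384) but not without each of libraries 16, 17, 18 and 20 in turn (adjusted p up to 0.299). Golm1, a Golgi protein used as a serum marker of liver disease, rose from 12.1 and 16.7 CPM to 84.8, 39.9 and 84.8 CPM (adjusted p = 0.000563). Afp, alpha-fetoprotein, was at 4.26 and 3.07 CPM and then 13.5, 7.48 and 34.4 CPM, with a call (log2 change 2.30 ± 0.53, adjusted p = 0.00997) that was lost without library 3 (adjusted p = 0.065) or library 4 (0.0997).

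Matrix genes rose in part. Of 34 collagens and matrix genes 16 were called higher and 1 lower from day 0 with ethanol, with a median log2 change of 0.807, against a median of 1.02 with chow and 0.299 in OO animals. The higher count was 6 without library 3 and 5 without library 4. Col4a1, a basement membrane collagen, rose from 91.2 and 93 CPM to 221, 139.7 and 215 CPM (log2 change 1.06 ± 0.19, adjusted p = 0.00252). Col1a1, the main fibrillar collagen of scar, was at 20.5 and 24.6 CPM at day 0 and at 78.6, 24.1 and 65.6 CPM with ethanol, where library 19 lay within the day 0 range. It was not called (log2 change 1.32 ± 0.53, adjusted p = 0.101) except without library 19 (adjusted p = 0.0226). Its chow values were 104 and 80.4 CPM. Col5a3, a minor fibrillar collagen chain, fell from 67.1 and 71.2 CPM to 16.9, 21.5 and 18.8 CPM (log2 change -1.86 ± 0.16, adjusted p = 4.06e-05), and it was lower with ethanol than with chow as well (log2 difference -1.39 ± 0.16, adjusted p = 0.00152).

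Among 30 matrix proteases and collagen-modifying genes 19 were called higher and 0 lower, with 6 without library 3 and 4 without library 4. Mmp14, the membrane protease that activates MMP2, rose from 33.2 and 37.8 CPM to 93.8, 89.1 and 95.4 CPM (log2 change 1.39 ± 0.11, adjusted p = 2.77e-05). Mmp9, a neutrophil and macrophage gelatinase, rose from 0.438 and 0.494 CPM to 3.29, 2.21 and 3.7 CPM (log2 change 2.70 ± 0.41, adjusted p = 0.00108). Pdgfra, a growth factor receptor of stellate and portal fibroblasts, rose from 23.4 and 20.9 CPM to 86.3, 61 and 53.1 CPM (log2 change 1.59 ± 0.21, adjusted p = 0.00042). Of 24 genes of stellate cells and myofibroblasts 7 were called higher and 0 lower, Pdgfra among them, with a median log2 change of 0.657, or 3 without library 3 and 3 without library 4. Acta2, the smooth muscle actin of contractile myofibroblasts, was not called: it was at 4.82 and 17.9 CPM at day 0 and at 4.64, 7.05 and 13.5 CPM with ethanol, with overlapping groups. Timp1, the inhibitor of matrix proteases, was at 0.626 and 0.89 CPM and then 1.81, 2.57 and 3.87 CPM (adjusted p = 0.244, or 0.0219 when only the 5 libraries were fitted). Smooth muscle and mesothelium markers summed to 41.1 to 61 CPM at day 0 and to 42.9 to 71.1 CPM with ethanol.

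The P450 genes split into a rising and a falling set. Of 36 tested, 12 were called higher and 10 lower from day 0, with a median log2 change of 0.0136 (7 higher without library 4). Cyp2b9 had 3 counts in the day 0 libraries together and stood at 234, 257 and 265 CPM with ethanol, a ratio of 2160 with a 95% counting interval of 739 to 10500. Cyp2b13 had 0 counts at day 0 and was at 5.86, 3.19 and 4.29 CPM with ethanol, at least 40.5-fold higher against a limit of 3 counts over the day 0 group. Cyp2b10, the usual readout of the drug receptor CAR, was at 13.1 and 11.5 CPM at day 0 and at 799, 569 and 1102 CPM with ethanol (log2 change 6.06 ± 0.43, adjusted p = 1.54e-05). In the chow livers Cyp2b10 stayed at 18.7 and 10.3 CPM, so the groups with and without ethanol did not overlap. Cyp2c29, a CAR target too, was at 1054 and 949 CPM at day 0, at 319.5 and 279 CPM with chow and at 5627, 6508 and 4536 CPM with ethanol. It had risen from day 0 with ethanol (log2 change 2.47 ± 0.21, adjusted p = 3.58e-05) and was far above chow (log2 difference 4.21 ± 0.23, adjusted p = 1.11e-05). Cyp2b and Cyp2c genes have close copies, so the split of reads among them is uncertain.

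Ethanol in OO animals gave the same direction for these genes. Cyp2b10 went from 4.22 and 2.71 CPM at OO day 0 to 991, 1449 and 839 CPM (log2 change 8.31), and the rise was smaller in CCl4 animals (log2 difference -2.25 ± 0.51, adjusted p = 0.0231). That difference was lost without each of libraries 1, 2, 3, 4 and 18 in turn (adjusted p up to 0.0985). Against chow at day 20, 0.501% of all genes tested were called higher with ethanol and 0.765% lower. Among 36 P450 genes 13 were called higher and 2 lower (Cyp1a2, named after its value was seen, and Cyp2u1). Both lower calls were lost without library 16 or library 17, and that of Cyp1a2 also without library 19 or library 20 (adjusted p up to 0.332 for Cyp1a2 and 0.0575 for Cyp2u1).

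Cyp2e1, which activates both CCl4 and ethanol, fell in the CCl4 animals. It was at 2255 and 2038 CPM at day 0 and at 425, 731 and 194 CPM with ethanol (log2 change -2.25 ± 0.43, adjusted p = 0.00367), with library 20 lowest and all 3 below day 0. The chow libraries lay between at 1235 and 1235 CPM, and the arms did not differ past the threshold (adjusted p = 0.16). In OO animals it was at 3470.2 and 4065 CPM at day 0 and at 5859, 2909.5 and 3527 CPM with ethanol. The change differed between CCl4 and OO animals (log2 difference -2.37 ± 0.61, adjusted p = 0.0385), a call lost without each of libraries 1, 2, 3, 4, 15 and 18 in turn (adjusted p up to 0.17). Cyp2a5, a coumarin hydroxylase picked out after its values were seen, moved in opposite directions, though Cyp2a genes too have close copies. It fell from 216 and 188 CPM to 30.6, 51 and 13.8 CPM in CCl4 animals and rose from 145 and 278 CPM to 3449.9, 2761 and 3303 CPM in OO animals (log2 difference -6.57 ± 0.63, adjusted p = 0.000516). Cyp2u1, an arachidonic acid hydroxylase, fell from 30.5 and 29 CPM to 4.6, 1.29 and 2.78 CPM (log2 change -3.32 ± 0.34, adjusted p = 0.000117).

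**Figure D3:**
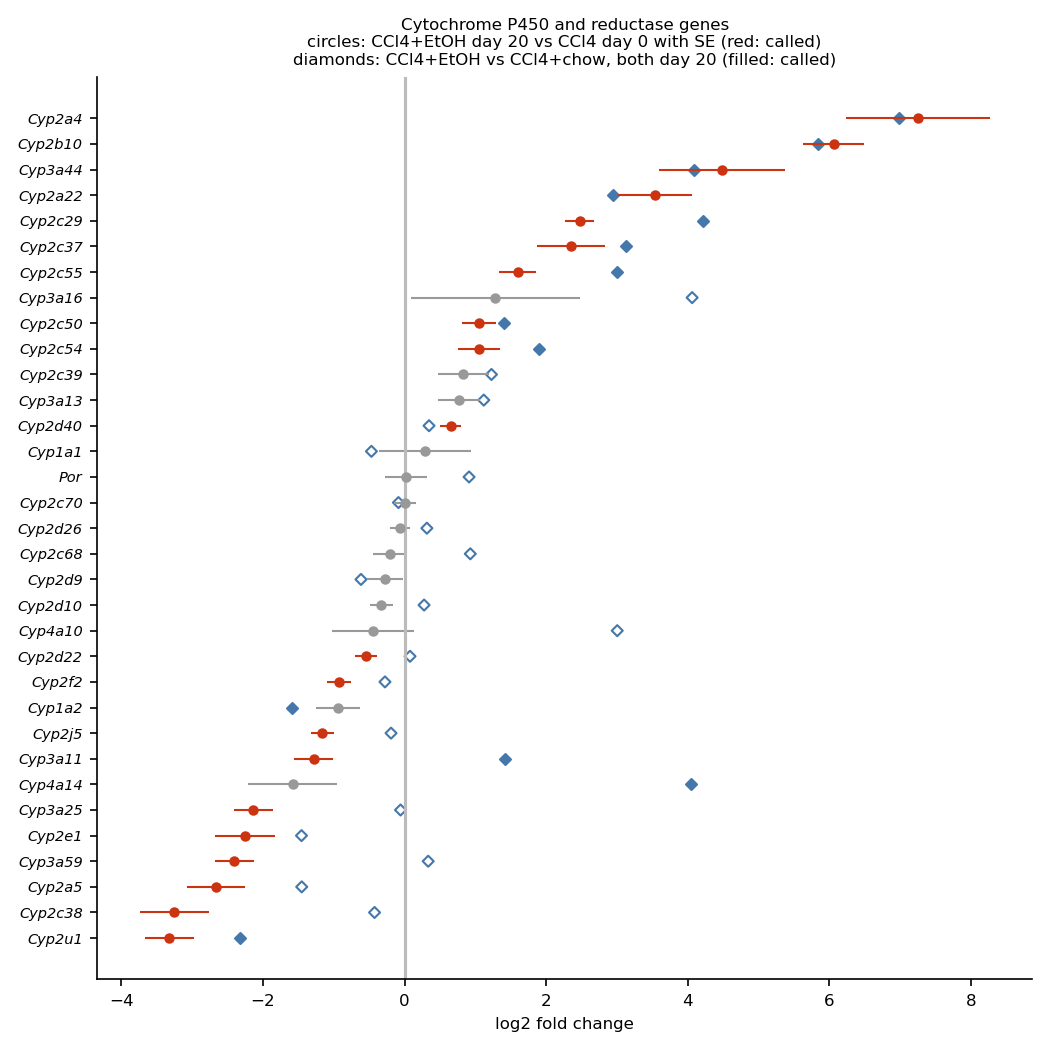
Log2 fold change of 33 cytochrome P450 and reductase genes: circles with SE bars show CCl4 with ethanol at day 20 against CCl4 day 0 (red where called), and diamonds show CCl4 with ethanol against CCl4 with chow, both at day 20 (filled where called). Of the genes drawn, Cyp2a4 and Cyp2b10 have the highest values in both, Cyp2u1 and Cyp2c38 the lowest against day 0, and 3 members with 3 or fewer day 0 counts are not drawn.

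Sex-biased liver genes, set by the pulses of growth hormone, changed, the male-biased ones mostly downward. Of 25 male-biased genes 19 were called lower and 1 higher from day 0, with a median log2 change of -2.81, against -0.657 with chow and -1.56 in OO animals. Elovl3, a fatty acid elongase on chromosome 19 (chr19:46131897-46135694, mm10, plus strand), was at 314 and 304 CPM at day 0 and at 0.548, 0.123 and 0.0842 CPM with ethanol. That is a 999-fold fall (log2 change -9.96 ± 1.36, adjusted p = 0.000555), while the chow livers held 65.1 and 52.3 CPM. Hsd3b5, a steroid dehydrogenase of male liver, was at 53.2 and 63.8 CPM at day 0, at 18.2 and 40.8 CPM with chow and at 0.169, 0.123 and 0.168 CPM with ethanol (log2 change from day 0 -8.49 ± 0.68, adjusted p = 2.74e-05). All ethanol libraries lay below 1 CPM for both genes. Slco1a1, an organic anion transporter, fell from 390.2 and 418 CPM to 5.65, 7.3 and 5.56 CPM (log2 change -6.03 ± 0.45, adjusted p = 1.98e-05), with 153 and 214 CPM in the chow livers. Cyp7b1, an oxysterol hydroxylase, fell from 261 and 265 CPM to 16, 17.4 and 9.51 CPM (log2 change -4.19 ± 0.28), with 106 and 159 CPM with chow. Clec2h, a C-type lectin, fell from 30.6 and 32.1 CPM to 0.0422, 0.245 and 0 CPM (log2 change -8.22 ± 0.50). The list member called higher, Hao2, had only 2 counts in the day 0 libraries together, although these livers were male. Hao2 stood at 0.125 and 0 CPM at day 0 and at 0.591, 0.92 and 0.421 CPM with ethanol. Its call was lost without each of libraries 3, 4 and 18 in turn (adjusted p up to 0.195).

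Of the 25 male-biased genes 17 were called lower with ethanol than with chow and 0 higher. Hsd3b5 differed by a log2 value of -7.51 ± 0.69 (adjusted p = 0.000347), Slco1a1 by -4.89 ± 0.43 (adjusted p = 0.000261) and Cyp7b1 by -3.20 ± 0.27 (adjusted p = 0.00025). These calls held without each library. Elovl3 differed by -7.57 ± 1.33 (adjusted p = 0.021), but the call was lost without each of libraries 16, 17, 18, 19 and 20 in turn (adjusted p up to 0.101). In OO animals with ethanol Hsd3b5 fell too, from 142 and 177 CPM to 1.39, 0.313 and 3.19 CPM, and the difference between the arms did not pass (adjusted p = 0.375). Elovl3 fell further in CCl4 animals: OO values were 199 and 342 CPM at day 0 and 17, 7.2 and 164 CPM with ethanol (log2 difference -7.85 ± 1.70, adjusted p = 0.0184), lost without each of libraries 1, 2, 3 and 4 in turn (adjusted p up to 0.111). Cyp4a12a, a fatty acid hydroxylase with a near-identical copy, fell from 120.2 and 144 CPM to 0.97, 0.552 and 0.0842 CPM and fell further than in OO animals (log2 difference -6.50 ± 0.91, adjusted p = 0.0038).

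Female-biased genes moved the opposite way, with 10 of 24 called higher and 0 lower and a median log2 change of 2.17, or 5 called without library 3 and 4 without library 4. The list median above day 0 was 0.573 in library 18, 2.71 in library 19 and 0.977 in library 20, and the fitted median ran from 0.743 to 2.56 over the alternative fits. Cyp2b9 and Cyp2b13, described above, lead the list. Cyp2a4 was at 0.626 and 1.48 CPM at day 0, at 1.39 and 0.996 CPM with chow and at 198, 45.2 and 208 CPM with ethanol (log2 change from day 0 7.25 ± 1.01, adjusted p = 0.000633). Library 19 had the lowest of the 3 ethanol values and was still far above day 0. Prom1, a membrane glycoprotein that progenitor cells also carry, was at 3.51 and 13.2 CPM at day 0 and at 57.2, 45.7 and 83.6 CPM with ethanol (log2 change 2.94 ± 0.56, adjusted p = 0.00384). Ghr, the growth hormone receptor itself, fell from 687 and 701 CPM to 200.2, 252 and 223 CPM (log2 change -1.62 ± 0.14, adjusted p = 4.38e-05). The chow livers had 393 and 445 CPM of Ghr, above every ethanol library, and the arms differed (log2 difference -0.90 ± 0.14, adjusted p = 0.0143) except without each of libraries 16, 17 and 20 in turn (adjusted p up to 0.13).

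Some further genes were high with ethanol and low in the chow arm. Mt1, a metallothionein that binds zinc and copper, was at 19.5 and 22.1 CPM at day 0, at 20.9 and 31.8 CPM with chow and at 166, 421 and 249 CPM with ethanol. It rose from day 0 by 3.74 ± 0.67 on the log2 scale (adjusted p = 0.00272) and stood above chow by 3.40 ± 0.66 (adjusted p = 0.0326), the latter lost without each of libraries 16, 17, 19 and 20 in turn (adjusted p up to 0.303). OO livers already had 572 and 313 CPM at day 0. Metal response elements were searched as TGCACNC or TGCGCNC in the 250 bases before the start and were found in 5 of 12 windows of the metallothionein and zinc transporter list (41.7%) against 21.4% of all windows. Bases after the RefSeq start were not searched, so the matches are not a full count of such elements at a gene. The 150 bases before the RefSeq start of Mt1, chr8:94178939-94179088 on the plus strand of GRCm38.p6, hold 1 match, in capitals, and are shown since Mt1 had the smallest adjusted p of that list.
Mt1: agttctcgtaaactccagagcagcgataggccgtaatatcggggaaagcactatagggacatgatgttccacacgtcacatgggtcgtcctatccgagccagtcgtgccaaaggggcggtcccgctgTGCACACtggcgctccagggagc
Of the 12 genes of that list 4 were called higher and 0 lower, and Mt1 was the member whose call held in every leave-out fit.

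Ptges, the inducible prostaglandin E synthase, was at 0.125 and 0.198 CPM at day 0, at 2.78 and 1.73 CPM with chow and at 10.5, 4.78 and 11.2 CPM with ethanol (log2 change from day 0 5.76 ± 0.59, adjusted p = 0.000115). Vnn1, a pantetheinase and a target of PPARA, was at 3.13 and 1.98 CPM, 14 and 13.6 CPM and 59.4, 32.4 and 44.6 CPM in the same order (log2 change from day 0 4.11 ± 0.44, adjusted p = 0.000155). For both genes the chow libraries lay between day 0 and ethanol.

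Hepatocyte metabolism fell across several lists, some of them with like medians in both day 20 arms. Of 42 urea cycle and amino acid genes 25 were called lower and 0 higher, with a median log2 change of -0.845 with ethanol, -0.897 with chow and -0.174 in OO animals. The 10 general hepatocyte markers, Cps1 and Cyp2e1 among them, had a median of -0.76, and the part of a lower hepatocyte share in the falls of hepatocyte genes was not tested. Gls2, the liver glutaminase, was at 707 and 731 CPM at day 0, at 230.3, 265 and 221 CPM with ethanol and at 249 and 215 CPM with chow (log2 change with ethanol -1.59 ± 0.13, adjusted p = 2.77e-05). Cps1, the first enzyme of the urea cycle, fell from 10998 and 10906 CPM to 4412, 6092 and 3549.6 CPM (log2 change -1.23 ± 0.22, adjusted p = 0.00302). Agxt, which clears glyoxylate, fell from 527 and 501 CPM to 169.7, 166 and 162 CPM (log2 change -1.63 ± 0.16, adjusted p = 7.65e-05). No member of this list was called between ethanol and chow (0 of 42 by edgeR's quasi-likelihood test). Arg1, the last enzyme of the cycle, named after its values were seen, was not called: it was at 1404 and 1317 CPM at day 0 and at 743, 1326 and 679 CPM with ethanol, where library 19 lay between the day 0 values, and without that library the adjusted p was 0.0358.

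Respiratory chain genes were small but uniform in their change. All 34 members lay below day 0 in every ethanol library, as 27.1% of all genes tested did, and 24 were called lower with a median log2 change of -0.565, against -0.605 with chow and 0.0292 in OO animals. The count was 6 without library 3, 8 without library 4, 16 without library 18 and 12 without library 20, and 0 when a change of at least 1.5-fold was required by the test. Ndufs7, a subunit of complex I, was at 52.7 and 46.6 CPM at day 0 and at 26.5, 28.7 and 24.8 CPM with ethanol (log2 change -0.90 ± 0.13, adjusted p = 0.000707). Cyc1, of complex III, was at 119.7 and 126 CPM and then 77.5, 70.3 and 71.6 CPM (log2 change -0.75 ± 0.11, adjusted p = 0.000734). Atp5g1, of the ATP synthase, showed the smallest change of the list (-0.17 ± 0.11, adjusted p = 0.323). The change of Ndufs7 differed from that in OO animals (log2 difference -1.25 ± 0.18, adjusted p = 0.00431).

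Bile acid and sterol export genes fell, 18 of 32 with 1 higher (Abcc4, a basolateral exporter), or 11 without library 3 and 11 without library 4. Abcg5 and Abcg8 form the canalicular sterol exporter. Abcg5 was at 125 and 119.5 CPM at day 0 and at 18.5, 28.7 and 30.1 CPM with ethanol (log2 change -2.26 ± 0.18, adjusted p = 2.5e-05), and Abcg8 followed with 139 and 148 CPM and 11.3, 22.1 and 21 CPM (log2 change -2.99 ± 0.22, adjusted p = 1.98e-05). The 2 genes lie head to head on the same chromosome. In OO animals both went up with ethanol, Abcg5 from 55.5 and 54.6 CPM to 93.9, 102 and 108 CPM, and the difference between the changes was -3.13 ± 0.25 for Abcg5 (adjusted p = 0.0003) and -4.32 ± 0.32 for Abcg8 (adjusted p = 0.000181). Abcc4 differed by -3.27 ± 0.31 (adjusted p = 0.000516): it was at 9.08 and 7.81 CPM and then 14.9, 17 and 21.7 CPM in CCl4 animals, a call lost without library 4 (adjusted p = 0.0648), and went from 5.23 and 5.27 CPM to 119.9, 116 and 84.5 CPM in OO animals. Nr0b2, the repressor SHP, fell from 75 and 82.5 CPM to 13.4, 18.8 and 23.9 CPM (log2 change -2.08 ± 0.27, adjusted p = 0.000446). Cyp27a1, of the acidic pathway of bile acid synthesis, fell from 513 and 466 CPM to 158, 209 and 123 CPM (log2 change -1.58 ± 0.19). Cyp7a1, the rate-limiting enzyme of the classic pathway, spread over 271, 140.0 and 39.7 CPM with ethanol around 175 and 143 CPM at day 0 and was not called (adjusted p = 0.965).

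Cholesterol synthesis genes showed 14 of 26 called lower and 0 higher, with a median log2 change of -0.852 with ethanol, -0.322 with chow and 0.372 in OO animals. The count was 6 without library 3, 8 without library 4, 9 without library 18 and 9 without library 20. Pmvk, phosphomevalonate kinase, was at 72.9 and 65.2 CPM at day 0 and at 27.5, 26.2 and 27.1 CPM with ethanol (log2 change -1.36 ± 0.21, adjusted p = 0.0011). Tm7sf2, a sterol reductase, was at 108 and 107 CPM and then 45.5, 42.8 and 40.7 CPM (log2 change -1.32 ± 0.17, adjusted p = 0.000362). Nsdhl, a sterol dehydrogenase, was at 62.5 and 54.8 CPM, at 83.2 and 47.5 CPM with chow and at 24.1, 23.2 and 25.2 CPM with ethanol (log2 change from day 0 -1.28 ± 0.23, adjusted p = 0.00278). For Tm7sf2 the change differed from that in OO animals by -1.33 ± 0.24 (adjusted p = 0.00896).

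Genes of ethanol and aldehyde oxidation were not called higher with ethanol in these livers. Of 13 tested 0 were called higher and 6 lower, with a median log2 change of -0.517, while in OO animals 3 were called higher (Adh1, Aldh1a1 and Aldh3a2). Adh1, the main alcohol dehydrogenase, was at 1990.4 and 1794 CPM at day 0 and at 2835, 2037 and 2524 CPM with ethanol and was not called (log2 change 0.38 ± 0.17, adjusted p = 0.144) except without library 19, when it was called higher (adjusted p = 0.0427). Aldh2, the mitochondrial acetaldehyde dehydrogenase, was at 1083 and 1039.7 CPM and then 748, 885 and 592 CPM (log2 change -0.52 ± 0.19, adjusted p = 0.0755), with a call without library 19 (adjusted p = 0.0284). Adh4, which also oxidises retinol, fell from 238 and 226 CPM to 135, 102 and 86 CPM (log2 change -1.11 ± 0.21, adjusted p = 0.00346), with 267 and 296 CPM in the chow livers. Acss2, which turns acetate from ethanol into acetyl-CoA, fell from 344 and 316 CPM to 89.1, 79.6 and 70.5 CPM (log2 change -2.05 ± 0.27, adjusted p = 0.000455). Its chow libraries, 360.0 and 187 CPM, lay above all ethanol libraries (log2 difference -1.78 ± 0.27, adjusted p = 0.0103, lost without library 16 with an adjusted p of 0.116). In OO animals Acss2 stood at 148 and 124 CPM at day 0 and at 115, 194 and 189 CPM with ethanol (log2 difference of the changes -2.34 ± 0.39, adjusted p = 0.00679).

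**Figure D4:**
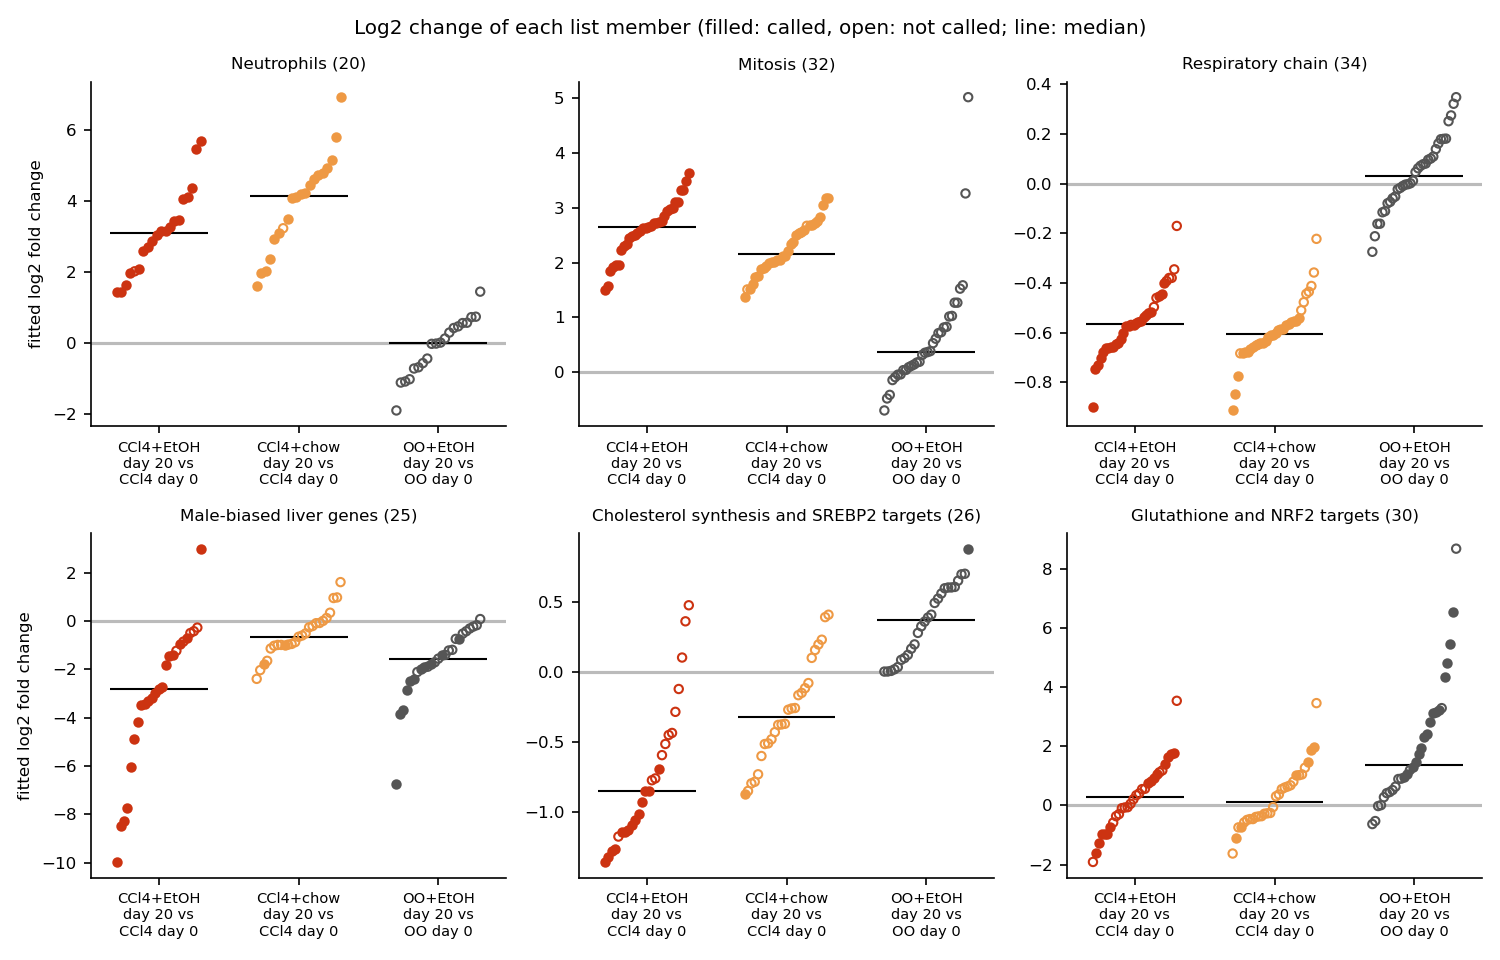
Fitted log2 change of each tested member of 6 lists in 3 comparisons, CCl4 with ethanol and CCl4 with chow against CCl4 day 0 and OO with ethanol against OO day 0; filled points passed the test, open points did not, and the line is the median. The medians of neutrophil, mitosis and respiratory chain genes lie on the same side of 0 in both CCl4 arms and closer to 0 in OO animals, that of male-biased genes is lowest in CCl4 animals with ethanol, and 16 of 30 glutathione genes and NRF2 targets passed upward in OO animals.

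Glutathione genes and NRF2 targets marked a difference from OO animals. From day 0 with ethanol 8 of 30 were called higher and 6 lower in CCl4 animals (median log2 change 0.277), and the higher count was 4 without library 3, 2 without library 4 and 4 without library 18, the lower count 2 without library 3 and 1 without library 4. In OO animals 16 were called higher and 0 lower (median 1.38). The change was smaller in CCl4 animals for 17 of the 30 and larger for 0. Gclc, the catalytic subunit of glutathione synthesis, was at 451 and 475 CPM and then 229.6, 232 and 247 CPM in CCl4 animals and at 202 and 331 CPM and then 658, 514 and 506 CPM in OO animals (log2 difference -2.04 ± 0.29, adjusted p = 0.0038). Gsta1, a glutathione transferase, was at 9.02 and 3.16 CPM and then 22, 11.1 and 7.32 CPM in CCl4 animals and at 0.459 and 0.958 CPM and then 52.9, 65.2 and 85.4 CPM in OO animals (log2 difference -5.42 ± 0.85, adjusted p = 0.00529). Both genes were named after their values were seen and started higher in the CCl4 livers at day 0. Gstt3, a theta-class transferase, rose in both, to 103, 108 and 75.8 CPM in CCl4 animals from 30.1 and 26.7 CPM, and stood above the chow arm (log2 difference 2.86 ± 0.25, adjusted p = 0.000261).

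Of 26 iron and haem genes 4 were called higher and 8 lower, where 11.6% of all genes tested were called higher and 9.11% lower. The counts were 2 and 2 without library 3 or 4, and 4 lower without library 18 or 20. Hamp, hepcidin, the hormone that closes iron export, was at 300.4 and 278 CPM at day 0 and at 51.6, 69.4 and 4.21 CPM with ethanol, lowest in library 20. Its log2 change of -2.78 ± 0.72 (adjusted p = 0.0185) was lost without library 3 (adjusted p = 0.0846) or library 4 (0.0736). Bmp6, the signal that drives hepcidin, fell from 6.89 and 6.43 CPM to 2.49, 1.72 and 2.78 CPM (log2 change -1.52 ± 0.27, adjusted p = 0.00262). Trf, transferrin, rose from 20177 and 19453 CPM to 35290.0, 37477 and 43667 CPM (log2 change 0.97 ± 0.17, adjusted p = 0.00238). Alas2, the haem synthesis enzyme of red cell precursors, fell from 192 and 191 CPM to 49.4, 35.5 and 38 CPM (log2 change -2.22 ± 0.18, adjusted p = 2.99e-05) and made up nearly all of the erythroid marker sum, 193 CPM at day 0 and 36.2 to 51.1 CPM with ethanol.

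Innate sensing and interferon genes were called higher in smaller numbers. Of 29 Toll-like receptor and endotoxin-sensing genes 11 were called higher and 0 lower, or 5 without library 3 and 4 without library 4. Tlr13, a receptor for bacterial ribosomal RNA, rose from 5.07 and 5.44 CPM to 27.6, 36.2 and 26.6 CPM (log2 change 2.52 ± 0.27, adjusted p = 0.000161). Of 31 interferon-stimulated genes 7 (22.6%) were called higher and 0 lower from day 0 with ethanol (median log2 change 0.445). Over all genes tested the shares were 11.6% and 9.11%. The count of 7 was smaller without library 3 and smallest without library 4. With chow 21 of the 31 (67.7%) were called higher (median 1.03), against 7.27% of all genes tested. Set directly against chow, 2 of the 31 were called lower with ethanol and 0 higher, against 0.765% and 0.501% of all genes tested. Ifih1, a sensor of double-stranded RNA, was at 65.5 and 63.8 CPM at day 0, at 78.8 and 89.1 CPM with chow and at 56, 51.7 and 53 CPM with ethanol (log2 difference of ethanol from chow -0.65 ± 0.11, adjusted p = 0.017, lost without library 17 or library 20 with an adjusted p up to 0.146).

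Lists of lipogenesis, sinusoidal endothelium and hepatocyte transcription factors had 23.5%, 20% and 13.6% of their tested genes called, against 20.7% of all genes. Cd36, a fatty acid transporter, rose from 82.7 and 80.1 CPM to 232, 273 and 316 CPM (log2 change 1.75 ± 0.22, adjusted p = 0.000389), with 90.6 and 161 CPM in the chow livers. Of 34 lipogenesis and lipid droplet genes 5 were called higher and 3 lower, with 2 higher without library 3, 1 without library 4 and 3 without library 18. Kdr, the main VEGF receptor of sinusoidal endothelium, fell from 111 and 116 CPM to 72.4, 68.5 and 63.7 CPM (log2 change -0.74 ± 0.11, adjusted p = 0.000713), 1 of 4 lower and 2 higher among 30 genes of that cell type, the higher pair falling to 0 without library 3 and 1 without library 4, 18 or 20. Klf15, a fasting-responsive factor of amino acid breakdown, fell from 145 and 145 CPM to 75.3, 81 and 82.1 CPM (log2 change -0.87 ± 0.12, adjusted p = 0.000728), 1 of 3 lower and 0 higher among 22 hepatocyte transcription factors and the 1 left without library 3, 4 or 18.

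Several fixed genes were not called. Alb, albumin, was at 56118 and 52818 CPM at day 0 and at 54451, 43032 and 56701 CPM with ethanol (log2 change -0.08 ± 0.19, adjusted p = 0.804). Hnf4a, the factor that sets hepatocyte identity, was at 508 and 509 CPM and then 419.9, 481 and 537 CPM (log2 change -0.09 ± 0.16, adjusted p = 0.766). Yap1 had a log2 change of -0.03 ± 0.22 (adjusted p = 0.944). All 3 had overlapping groups. Glul, the glutamine synthetase of the last hepatocytes before the central vein, was at 178 and 183 CPM and then 120.1, 215 and 120.0 CPM (adjusted p = 0.566), against 886 and 1016 CPM in OO livers at day 0. Krt19, a keratin of bile ducts, was at 3.01 and 10.4 CPM and then 3.04, 3.19 and 2.53 CPM (adjusted p = 0.161), with 1 day 0 library apart from the rest. Fgf21, a stress hormone of hepatocytes, was at 0.438 and 0.297 CPM and then 1.43, 3.92 and 20.4 CPM, highest in library 20. Its call (log2 change 4.43 ± 1.28, adjusted p = 0.0299) was lost without each of libraries 3, 4 and 20 in turn (adjusted p up to 0.173).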

How the data were processed

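RNA from snap-frozen mouse liver was sequenced with a TruSeq mRNA kit, per the labels' protocols. The authors deposited a table of read counts per gene symbol for each library. Per the submitters' processing notes the reads were handled with GSNAP and DESeq2 1.12.3 on mm10, with counting program, annotation and strand setting not given in the sources used here. The 5 entries that name no gene, among them reads that matched more than 1 place (18.1% to 23.1% of reads in the 5 libraries compared), stayed out of library sizes, which left 48% to 53% of reads. Groups and times follow the labels, although file names give another day.

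Counts of all 15 libraries were fitted in edgeR 4.0.16 (R 4.3.3) with 1 mean for each of 8 groups, TMM scaling and the filterByExpr filter, and tested by the quasi-likelihood test with Benjamini-Hochberg adjustment over 14778 genes. A gene was called at an adjusted p under 0.05. SE is the log2 change divided by the square root of F. The day 0 libraries also enter the chow comparison and the ethanol libraries the comparison with chow, so these share samples. Calls in the chow and OO side comparisons were not refitted with libraries left out.

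The named genes were up to 10 per direction with the largest change (mean of at least 5 CPM in a group, no overlap), up to 4 called members with the smallest adjusted p of each of 58 lists with at least 3 called, the members at each end of a list, and a set of fixed genes. The comparison, lists and genes were chosen with earlier results of these data known. Promoter sequences are from RefSeq (GRCm38.p6) and the coordinates of Elovl3 from GENCODE M21 on mm10. Other lists were searched for motifs in the same way. TCACNCCAC stood in 1 of 21 windows of the cholesterol synthesis list (4.76%, against 1.05% of all windows). TTCNNNGAA stood in 3 of 20 windows of the male-biased list (15%, against 7.02% of all windows). Some genes that this rule names are not reported here.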

Additional observations from a re-analysis of the deposited data

Results flagged for a closer look

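The change from day 0 to day 20 with ethanol differed between CCl4 and OO animals in 1172 genes by edgeR's quasi-likelihood test of the difference itself (adjusted p under 0.05). Positive values below mean a larger rise, or smaller fall, on the log2 scale in CCl4 animals. Over all genes tested 3.78% were called upward and 4.15% downward. Of 30 acute-phase genes 14 were called upward and 0 downward, and among acute-phase and inflammatory genes the values were 7.21 for Lcn2, 6.17 for Orm2, 4.76 for Orm3, 5.68 for Saa1, 2.13 for Hp, 4.82 for Spp1 and 1.88 for Il1b. Macrophage genes differed by 2.68 (Lyz2) and 1.75 (Cd163), and growth or stress genes by 1.51 (Ccnd1), 3.36 (Cdkn1a), 2.79 (Afp), 6.87 (Akr1c18), 4.74 (Ptges) and 4.51 (Mt1).

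Of 25 male-biased liver genes 7 were called downward and 0 upward, against 4.15% and 3.78% of all genes tested. The genes named for the largest falls from day 0 are a separate set, and not all of them are on that list. Among them the values were -7.85 for Elovl3, -6.37 for Cyp4a12b, -6.5 for Cyp4a12a and -6 for Clec2h. They were -2.58 for Slc22a28, -2.18 for Slco1a1, -2.09 for Tff3 and -3.64 for Stxbp5l. Metabolic genes differed by -2.25 (Cyp2b10), -2.37 (Cyp2e1), -1.33 (Cat) and -1.08 (Gls2). With a library left out the call held in every fit for Lcn2, Orm2, Saa1, Hp, Spp1, Lyz2, Cd163, Cyp4a12a and Clec2h, and each other gene listed here lost it in at least 1 fit. At day 0 the OO libraries held far more Lcn2 (1174 and 277 CPM) and Saa1 (4797 and 1979 CPM) than the CCl4 libraries (8.58 and 4.55 CPM and 49.7 and 47.6 CPM), and the part of this start in the differences was not tested.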

How the results depend on the processing

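The count of called genes against day 0 was 1104 when a change of at least 1.5-fold was tested, with 67.9% of them higher against 56% in the reported fit, and it ran from 1190 (without library 4) to 3230 (without library 19) with 1 library left out. The difference from OO animals gave 284 genes at 1.5-fold and 237 (without OO day 0 library 1) to 1851 (without OO ethanol library 13), with 57% of the calls upward at 1.5-fold and 56.3% in the compared libraries alone against 47.7%. Ethanol against chow gave 56 genes at 1.5-fold, 99 in the compared libraries alone, 412 with DESeq2, and 49 (without library 16) to 141 (without library 19) with 1 left out, and its share of higher calls fell from 39.6% to 28.6% at 1.5-fold, 20.4% without library 16 and 25.9% without library 17. The cause was not tested. Other scaling, filters, limma-voom with or without the lane, and a fit without libraries 6 and 12 (chosen after seeing the data, for their pancreas transcripts) gave 2815 to 3069 called genes against day 0, DESeq2 gave 3127 and the compared libraries alone 3716. No paired analysis was possible because the labels give the compared groups no shared replicate numbers, although lane entered limma-voom as a random block. Each day 0 group holds 2 libraries, which limits the precision.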
